A study of Homo sapiens with 6 samples.

Results

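The H17 sublibrary is 1 of 3 pools made from the original sublibraries of a genome-wide CRISPRi library. Its members were the sgRNAs with at least 50 reads in the bottom or the top H17 library and a larger share of reads in H17 than in H23 or H456. This gave 32258 of the 103566 sgRNAs analysed in the series, 31705 against 5969 genes and 553 nontargeting control (NTC) sgRNAs. In the whole series 18905 genes were measured.

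The cells were HEK293-FLP, human embryonic kidney cells with an FRT site into which transgenes can be placed. They carried a delta opioid receptor with a recycling sequence of the mu opioid receptor at its tail, fused to the peroxidase APEX2 (SSF-DORmct-APEX2 in the labels), together with dCas9-KRAB-BFP. Both quartiles shared these transgenes, puromycin at 0.75 μg/ml, 8 days of growth after transduction at a multiplicity of about 0.2, and 10 μM DADLE for 90 min. After reaction with the substrate AUR, BFP-positive single cells were sorted by fluorescence into the bottom and the top quartile, with 1 library each. The line was expanded from clonal populations picked for knockdown, and no arm without agonist is analysed here, so that signal before and after agonist cannot be told apart. Quartiles were taken from the sample titles, because the last letter of each library name points to the other quartile.

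In CRISPRi, a guide leads a Cas9 that cannot cut, joined to the KRAB repressor, to a start site and lowers transcription there. APEX2 turns AUR into a fluorescent product, and this activity is lost once the tagged receptor reaches the inside of a lysosome. A guide found more often in the bottom quartile therefore marks cells with less signal, whether from less receptor made, more of it degraded, or less reaction.

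The phenotype of a guide is the log2 ratio of its read shares, top over bottom library, less the median of the NTC guides. That of a gene is the mean over the guides at 1 start site, given with the SD over guides. A gene was called at an adjusted p under 0.05 when its guides were compared with the NTC guides by the Mann-Whitney U test (exact, two-sided), adjusted over the genes of all 3 sublibraries. The units of this test are guides within 1 pair of libraries, not cultures, so that its p does not cover the spread between sorts.

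Protein kinases made up a large family among the members. All 342 protein kinases of 11 lists that were measured in the series lay in H17, as did all 54 receptor tyrosine kinases and all 15 of the list of protein kinases C and D. Of 161 measured genes of protein phosphatases and their regulatory subunits, 129 lay in H17. The other large block was genes with provisional names, 420 with an open reading frame name and 227 with a FAM or KIAA name. No subunit of the proteasome and 1 of 83 measured ribosomal proteins was among the members.

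The guide sequences themselves are not printed. Shown instead are RefSeq windows (GRCh38.p14, 250 bases before to 50 after an annotated start) at genes whose guides split by start site or share a promoter with another gene. For SLC1A5 and C6orf62, capitals mark GGGCGG on either strand, a core of GC boxes, which 45.0% of 35116 promoter windows hold. The SLC1A5 windows lie on the minus strand at chr19:46788545-46788844 (upstream start) and chr19:46784765-46785064 (downstream start). The first holds 4 matches and the second 0. By guide position, the start site named P1 lies on the upstream side of SLC1A5 and P2 on the downstream side.
SLC1A5 upstream: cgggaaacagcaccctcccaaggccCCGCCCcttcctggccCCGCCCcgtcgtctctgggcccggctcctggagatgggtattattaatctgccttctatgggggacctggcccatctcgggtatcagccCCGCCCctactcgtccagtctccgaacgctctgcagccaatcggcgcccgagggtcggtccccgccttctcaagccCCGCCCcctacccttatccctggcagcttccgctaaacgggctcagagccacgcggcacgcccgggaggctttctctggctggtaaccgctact
SLC1A5 downstream: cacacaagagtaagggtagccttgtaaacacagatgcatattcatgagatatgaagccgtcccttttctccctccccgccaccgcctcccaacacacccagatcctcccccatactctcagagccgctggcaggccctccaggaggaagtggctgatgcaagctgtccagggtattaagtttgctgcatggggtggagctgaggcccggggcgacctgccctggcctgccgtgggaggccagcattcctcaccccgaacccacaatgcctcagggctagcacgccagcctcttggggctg

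The C6orf62 windows lie on the minus strand at chr6:24720787-24721086 (upstream) and chr6:24719105-24719404 (downstream). The upstream window holds 1 match and a GC content of 56.0%, the downstream window 0 matches and 38%. By guide position, the C6orf62 site named P2, with the low guides, lies on the downstream side and P1 on the upstream side. Guides were not aligned to these windows, and no link between the matches and the phenotypes was tested.
C6orf62 upstream: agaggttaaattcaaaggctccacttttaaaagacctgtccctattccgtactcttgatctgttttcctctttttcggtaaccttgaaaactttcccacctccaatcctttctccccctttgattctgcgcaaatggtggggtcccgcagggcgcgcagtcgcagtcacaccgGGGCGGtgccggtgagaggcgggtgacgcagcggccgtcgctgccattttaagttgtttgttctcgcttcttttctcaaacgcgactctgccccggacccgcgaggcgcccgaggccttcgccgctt
C6orf62 downstream: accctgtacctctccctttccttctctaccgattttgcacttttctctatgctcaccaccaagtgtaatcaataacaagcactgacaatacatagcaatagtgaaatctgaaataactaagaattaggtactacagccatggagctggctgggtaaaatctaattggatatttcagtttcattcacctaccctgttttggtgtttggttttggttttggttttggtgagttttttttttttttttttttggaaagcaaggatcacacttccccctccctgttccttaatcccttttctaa

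The CCDC87 window lies on the minus strand at chr11:66593014-66593313. Capitals mark the 221 bases it shares with the window of CCS, a gene read from the opposite strand.
CCDC87: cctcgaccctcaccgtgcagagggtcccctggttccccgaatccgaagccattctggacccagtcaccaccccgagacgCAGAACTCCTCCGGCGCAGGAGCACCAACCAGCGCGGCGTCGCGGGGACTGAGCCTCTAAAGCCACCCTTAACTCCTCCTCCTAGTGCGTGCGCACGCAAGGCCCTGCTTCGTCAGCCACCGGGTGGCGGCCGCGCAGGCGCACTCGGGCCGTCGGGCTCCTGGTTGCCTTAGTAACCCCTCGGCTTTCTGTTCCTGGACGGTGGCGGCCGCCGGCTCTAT

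The median number of reads per member was 744 in the bottom and 596 in the top library, and 2.28% and 3.64% of members had under 100 reads. At the site used, 97.8% of the 5969 genes had at least 4 guides and 83.7% at least 5. Of the NTC guides, 20 of 553 lay below −1 in H17, or 3.62% (exact binomial 95% interval 2.22% to 5.53%), against 3 of 570 in H23 and 5 of 739 in H456. Both differences passed a two-sided Fisher's exact test (adjusted p = 0.000202 for each), which takes guides of 1 pair of libraries as units. With all libraries thinned to the same total, the share was 3.63%, against 0.53% and 0.68%.

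Guides with a target also lay more often below −1 than above 1 in H17. In H17, 629 targeting guides (1.98%) lay below −1 and 134 (0.42%) above 1, beside 3.62% and 0.72% of NTC guides. The counts of targeting guides below −1 and above 1 were 177 and 77 in H23, and 258 and 151 in H456. Among members with over 1000 and up to 2000 reads over both libraries, 1.40% lay below −1 in H17, against 0.65% in H23 and 0.23% in H456, and 0 lay above 1 in H17. At over 500 and up to 1000 reads the shares below −1 in H17, H23 and H456 were 2.26%, 1.41% and 0.74%. At over 2000 and up to 4000 reads they were 1.03%, 0.22% and 0.14%. With at most 500 reads the order differed. At over 200 and up to 500 reads the shares below −1 were 3.67%, 5.03% and 3.88%, and at up to 200 reads 13.03%, 22.22% and 13.38%. The 150 members below −2, of which 8 were NTC guides, had a median of 625 reads in the bottom and 75.5 in the top library. These guides were chosen by that ratio, and 113 of the members below −1 had at most 200 reads over both libraries.

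Low guides seldom met in 1 gene. The 629 guides fell on 555 genes, of which 494 had 1 such guide, 52 had 2 and 7 had 3. All 5 guides at the used site of SLC1A5 lay below −1. The 7 genes with 3 were ARF6, C6orf62, BMP5, HIST1H2AJ, INTS7, LOC388813 and PIWIL3, the last 5 named after their values were seen. HIST1H2AJ, a histone H2A gene, had a phenotype of −1.65 ± 1.65 (SD over 5 guides, adjusted exact p = 0.417), and BMP5, a signalling ligand, had −0.82 ± 0.65 (adjusted exact p = 0.393). Neither was called.

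Over the 5969 genes, 12 were called negative, or 0.201%, and 2 positive, or 0.0335%. At an unadjusted exact p under 0.05 there were 132 negative genes (2.21%) and 318 positive genes (5.33%). A rule of size with no test, at least 4 guides of one sign and a mean of 0.5 or more either way, held for 47 of 5839 genes on the negative side (0.805%) and 4 on the positive side (0.0685%). All 12 genes called negative met the rule of size, and 1 of the 2 called positive. The median gene lay at 0.02, 44.9% of genes lay below 0, and 90% lay between −0.34 and 0.26. The shares called were 14 of 5969 genes in H17, 49 of 6016 in H23 and 27 of 6920 in H456, and the difference between them was not tested. The called genes nearest the threshold were ACACA and TTI1 (adjusted exact p = 0.0498 each), and the nearest outside it was TTC23 at −0.90 ± 0.43 over 4 guides (adjusted exact p = 0.0614). TTC27, a repeat protein, followed at −0.51 ± 0.09 over 5 guides (adjusted exact p = 0.0758). TTC23 and TTC27 were named after their values were seen. Without the strongest guide of each gene, the calls of C6orf62, SRFBP1, RIOK2, WDR75, CHD1, CXorf61, CCDC87, SOD1, ACACA, TTI1, PPP2R5C and SEPSECS were lost, with adjusted exact p from 0.106 for SRFBP1 to 0.463 for TTI1. With p adjusted over H17 genes, those of CHD1 (0.0506), CXorf61 (0.0542), CCDC87 (0.0558) and SEPSECS (0.0558) were lost too, along with SOD1, ACACA and TTI1.

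SLC1A5, a glutamine transporter of the plasma membrane, was called negative at 1 of its start sites. At the start site named P1 its guides had 1032, 1293, 1668, 2645 and 1995 reads in the bottom and 320, 375, 478, 471 and 275 in the top library. The phenotypes ran from −2.55 to −1.38, with a mean of −1.81 ± 0.52 (SD over 5 guides, adjusted exact p = 8.18e-05). At the site named P2, 445, 712, 785, 884 and 527 reads in the bottom stood against 243, 558, 659, 702 and 321 in the top library, with a mean of −0.19 ± 0.27 and guides from −0.56 to 0.06. The guides of the sites did not overlap in phenotype, and how often this holds over H17 genes with more than 1 start site was not counted. P1 was used because its p was lower, so that this difference is a description. The P1 guides lie 3664 to 3885 bases from the outermost P2 guide, and the outer RefSeq starts of the gene lie 3780 bases apart. With both sites pooled the phenotype was −1.0, with an adjusted exact p of 0.0516.

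C6orf62, a gene of little known function, split by start site too. Its P2 guides had 724, 1593, 347, 668 and 1705 reads in the bottom and 443, 233, 150, 77 and 658 in the top library. All were negative, from −2.80 to −0.40, with a mean of −1.52 ± 1.05 (SD over 5 guides, adjusted exact p = 0.00713). The 4 P1 guides, with 321, 153, 1356 and 1715 reads in the bottom and 308, 133, 1200 and 1391 in the top library, lay between 0.01 and 0.25. No P1 guide reached the level of any P2 guide. P2 was used because its p was lower, so that this difference too is a description. In H17, 517 genes had more than 1 start site, and how often their sites did not overlap was not counted. Pooled over sites, C6orf62 had −0.79 and an adjusted exact p of 0.704.

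ARF6, a small GTPase of endocytosis and recycling at the plasma membrane, missed the threshold. Its 5 P2 guides had 3417, 901, 1519, 700 and 742 reads in the bottom and 1262, 297, 998, 50 and 523 in the top library. The guide with 700 and 50 reads lay at −3.49, a pair lay at −1.29 and −1.12, and the others lay at −0.29 and −0.19. The mean was −1.28 ± 1.33 (SD over 5 guides, adjusted exact p = 0.104). At P1 the mean was −0.19 ± 0.23, with guides from −0.37 to 0.21. Of 17 alternative settings ARF6 was called in 1, the minimum of 1 read (adjusted exact p = 0.0421), and its phenotype ranged from −1.97 to −0.72.

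Of the 10 ARF and ARL GTPases in H17, 6 were negative, with a median of −0.03, and none was called. ARL3, which releases lipid-anchored cargo at cilia, had −0.36 ± 0.29 (SD over 4 guides). ARF4 had 0.09 ± 0.20 (4 guides), and ARF1, a GTPase of Golgi coats, had 0.30 ± 0.38 (5 guides). ARF1 stood at 0.69 with a minimum of 1 read.

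The genes of ribosome production were few in H17. Of 12 in the list, 9 were negative, beside 44.9% of all H17 genes, and 2 were called negative, beside 0.201%. At an unadjusted exact p under 0.05, 4 were negative (33.3%), beside 2.21% of all H17 genes. The median was −0.18. RIOK2, an atypical kinase of late small-subunit maturation, had 588 to 1510 reads in the bottom and 216 to 746 in the top library, with a mean of −0.86 ± 0.38 (SD over 5 guides, adjusted exact p = 0.0144). WDR75, a protein of the small-subunit processome, had 631 to 1087 reads in the bottom and 239 to 549 in the top library, with a mean of −0.82 ± 0.25 (adjusted exact p = 0.0149). In each of the pair all 5 guides were negative, and no top read number exceeded that of its own bottom library. At the other end of the list, NHP2L1, a protein of small nucleolar particles, had 0.17 ± 0.16 and EFTUD1, which frees the large subunit of a late factor, had 0.17 ± 0.04.

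The others with an unadjusted exact p under 0.05, named after their values were seen, were RIOK1, a kinase of the same family, at −0.62 ± 0.60 (adjusted exact p = 0.538) and TSR2, a carrier of a small-subunit protein, at −0.40 ± 0.16 (adjusted exact p = 0.268). The list was written with results of the other sublibraries known, and it is not independent evidence of direction. RPS10, the ribosomal protein among the members, had −0.19 ± 0.39 over 3 guides. SRFBP1, a binding partner of serum response factor, lay beside these in size. Its guides had 834 to 2386 reads in the bottom and 285 to 1215 in the top library, with a mean of −0.88 ± 0.22 (SD over 5 guides, adjusted exact p = 0.00713), and every guide was negative.

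SOD1, the cytosolic superoxide dismutase that makes hydrogen peroxide, was called negative. Its guides had 631, 1008, 151, 1061 and 1976 reads in the bottom and 351, 464, 99, 468 and 581 in the top library. All were negative, from −1.45 to −0.30, and the mean was −0.79 ± 0.43 (SD over 5 guides, adjusted exact p = 0.0378). The call of SOD1 was lost with p adjusted over H17 genes (adjusted exact p = 0.0733) and without its strongest guide (adjusted exact p = 0.396). The AUR reaction was started with 50 μM hydrogen peroxide in both quartiles. Of 21 enzymes of peroxide and superoxide in H17, 12 were negative, beside 44.9% of all H17 genes, with a median of −0.03. SOD1 was the 1 called, beside 0.201% of all H17 genes called negative. GLRX2, a mitochondrial glutaredoxin, had −0.25 ± 0.33, PRDX6, a peroxiredoxin, had 0.22 ± 0.24, and GPX1, a glutathione peroxidase, had 0.38 ± 0.51. None of these was called.

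CCDC87, a coiled-coil protein, had 65, 658, 1311, 2762 and 1702 reads in the bottom and 15, 297, 867, 1374 and 704 in the top library. The mean was −0.92 ± 0.56 (SD over 5 guides, adjusted exact p = 0.0294). Its start lies within 1 kb of that of CCS, the copper chaperone of SOD1, on the opposite strand, and their promoter windows share the bases in capitals above. The 5 guides of CCS itself, measured in H23, had a mean of −1.02 ± 0.38 (adjusted exact p = 2.86e-05). Repression of CCDC87 and of CCS by guides at this start cannot be told apart. CCDC87 was not called with at least 100 reads in either library (adjusted exact p = 0.117).

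TTI1, a subunit of the co-chaperone that matures kinases of the mTOR and ATM family, had −0.89 ± 0.60 (SD over 5 guides, adjusted exact p = 0.0498), with guides from −1.59 to −0.28. It was not called with start sites pooled (adjusted exact p = 0.0553), with a minimum of 1 read (0.0561), with libraries thinned to the smaller total (0.0724) or with p adjusted over H17 genes (0.0999). Its start faces RPRD1B, a regulator of RNA polymerase II measured in H456, which had −0.48 ± 0.31 (adjusted exact p = 0.0505). ACACA, the acetyl-CoA carboxylase that commits carbon to fatty acids, had −0.72 ± 0.38 (adjusted exact p = 0.0498), with guides from −1.28 to −0.28. ACACA was not called with start sites pooled (adjusted exact p = 0.0553), a minimum of 1 read (0.0568), libraries thinned to the smaller total (0.0556) or p adjusted over H17 genes (0.0999). TTI1 and ACACA each have 1 analysed start site, so that pooling the sites of other genes changed only the adjustment of their p. TADA2A, which faces ACACA, had 0.02 ± 0.25 in H456. The paralog ACACB had 0.18 ± 0.42. Of 9 genes of fatty acid synthesis and activation, 2 were negative, and the median was 0.15. The desaturase FADS1 had 0.23 ± 0.27, and ACSS2, which makes acetyl-CoA from acetate, had −0.04 ± 0.26.

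CHD1, a chromatin remodeler at active genes, had 603 to 9243 reads in the bottom and 293 to 5122 in the top library. The phenotypes of its 5 guides lay between −1.03 and −0.50, with a mean of −0.71 ± 0.22 (SD over 5 guides, adjusted exact p = 0.0247). CXorf61 (RefSeq CT83), a gene of testis and tumours, had 161 to 764 reads in the bottom and 37 to 310 in the top library and a mean of −1.07 ± 0.73 (SD over 5 guides, adjusted exact p = 0.0258). It was not called with at least 50 reads in both libraries (−0.60, adjusted exact p = 0.347).

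PPP2R5C, a regulatory subunit of protein phosphatase 2A, and SEPSECS, which makes selenocysteine on its tRNA, were called positive. The guides of PPP2R5C had 606, 338, 524, 552 and 302 reads in the bottom and 727, 394, 558, 550 and 358 in the top library. They lay close together, between 0.31 and 0.58, with a mean of 0.48 ± 0.12 (SD over 5 guides, adjusted exact p = 0.0189), a 1.39-fold share in the top over the bottom quartile. The guides of SEPSECS had 72, 631, 778, 455 and 603 reads in the bottom and 69, 830, 947, 442 and 822 in the top library. They lay between 0.25 and 0.76, with a mean of 0.52 ± 0.24 (SD over 5 guides, adjusted exact p = 0.0292), and span 90 bases. SCLY, a lyase that frees selenium from selenocysteine, was among the 10 highest at 0.49 ± 0.32 (5 guides), with guides from 0.04 to 0.85, and was not called.

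The other genes among the 10 lowest of one sign had guides that differed widely. IGIP, an inducer of immunoglobulin A, had guides at −3.31 and −1.95 with the others between −0.55 and −0.15, and a mean of −1.26 ± 1.34. EBLN2, of viral origin, had 953 and 60 reads for a guide at −3.68, and its other 4 guides lay between −0.57 and −0.20 (mean −0.99 ± 1.51). IL37, an anti-inflammatory cytokine, had guides at −2.28, −1.62 and −0.87 with the others at −0.19 and −0.06, a mean of −1.0 ± 0.95 at the site used and −0.06 ± 0.25 at the other. CXorf30 (RefSeq CFAP47) had −1.04 ± 1.04 over 4 guides. None of these was called, and each SD was about as large as the mean or larger.

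The highest genes of one sign were smaller in size. DESI2, an isopeptidase, had 0.67 ± 1.17, with a guide at 2.75 that had 12 and 65 reads while the others lay between 0.01 and 0.28. FLJ22184 had 0.55 ± 0.59 over 4 guides, FSBP 0.53 ± 0.47 over 5, GAB3, a signalling adaptor, 0.49 ± 0.74 over 4, and SPOCK3, a proteoglycan, 0.49 ± 0.48 over 5. In each the highest guide had under 200 reads in the bottom library. PPP1R9B, a scaffold of protein phosphatase 1 in spines, had 0.49 ± 0.28 (adjusted exact p = 0.0902), and RGS7BP, a membrane anchor of G protein regulators, had 0.48 ± 0.23 over 4 guides. The last of these had guides between 0.24 and 0.75.

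The 342 protein kinases of the 11 lists, which leave out the RIO and AKT kinases among others, held no called gene. Of these, 135 were negative and 207 positive, with a median of 0.03. At an unadjusted exact p under 0.05, 6 were negative (1.75%) and 21 positive (6.14%), near the 2.21% and 5.33% of all H17 genes, and none met the rule of size. Their phenotypes lay between −0.80 and 0.39.

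The lowest kinase of the 11 lists was CDK11B, a kinase of transcription and splicing, at −0.80 ± 0.86 (SD over 5 guides, adjusted exact p = 0.399). DDR2, a collagen receptor, had −0.72 ± 1.73 with 2 of 5 guides negative. PRKDC, the DNA-dependent kinase, had −0.61 ± 1.25, with a guide at −2.83 and the others between −0.27 and 0.16. AKT2, outside the 11 lists like its relative AKT1, had −0.55 ± 0.57, and AKT1 had −0.28 ± 0.38. PRKD2, a Golgi kinase, had −0.53 ± 0.94. The median guide lay at 0.15 in DDR2, −0.08 in PRKDC and −0.10 in PRKD2, but at −0.63 in CDK11B, −0.53 in AKT2 and −0.35 in AKT1. None of the 6 genes was called.

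The kinases that phosphorylate active receptors and the arrestins that then bind them are the textbook entry to receptor endocytosis. Of 16 such genes in the series, 10 lay in H17, with a median of 0.06 and no call. ADRBK2, a receptor kinase that acts on opioid receptors, had 0.39 ± 0.22 (SD over 5 guides, all positive, adjusted exact p = 0.209). GRK7 had 0.23 ± 0.09 (all positive, adjusted exact p = 0.433), GRK6 −0.29 ± 0.31 and the arrestin-like ARRDC3 −0.21 ± 0.55.

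Opioid receptors and their peptides were not called. OPRD1, the endogenous gene of the receptor in the reporter, had 0.14 ± 0.32 (SD over 5 guides, adjusted exact p = 0.791). OPRM1 had −0.23 ± 0.43 over 4 guides, OPRK1 0.24 ± 0.22 and OPRL1 0.09 ± 0.22. The peptide precursors PENK, PNOC and POMC had 0.17 ± 0.18, 0.16 ± 0.37 and 0.12 ± 0.35. The 6 G protein subunits in H17 ran from −0.07 for GNAT1 to 0.17 for GNG12, with GNB1 at −0.03 and GNG2 at 0.08.

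H17 held only a part of the endosomal GTPases and coats. These were 8 of 59 measured Rab GTPases and 9 of 26 Retromer, Retriever, CCC and WASH genes. Of 23 genes in a list of clathrin, AP2 and endocytic kinases, 6 lay in H17. Of the 8 Rab GTPases, RAB5A, of early endosomes, was the highest at 0.25 ± 0.13 (SD over 5 guides, all positive, adjusted exact p = 0.395), RAB7A, of late endosomes, had 0.08 ± 0.33 and RAB8B had −0.26 ± 0.32. The 6 genes of the clathrin, AP2 and endocytic kinase list were FCHO2, AAK1, AAGAB, BMP2K, GAK and EPN1. No clathrin chain or AP2 subunit was among them. They ran from −0.19 for FCHO2 to 0.17 for EPN1, with the adaptor kinase AAK1 at −0.16 ± 0.70. Of 9 genes of the Retromer, Retriever, CCC and WASH list in H17, 6 were negative, with a median of −0.10. COMMD7 had −0.38 ± 0.61 with every guide negative, but its lowest guide lay at −1.44 and its median guide at −0.05. COMMD8 had −0.25 ± 0.25, FAM21C 0.05 ± 0.22 and FAM21A 0.17 ± 0.10. None of these lists held a call.

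In the actin branching complex, ARPC1B had 0.43 ± 0.19 (SD over 5 guides, all positive, adjusted exact p = 0.0635), the highest of 7 genes of this list. ARPC3 was the lowest at −0.27 ± 0.44. ARPC1B was called with the keratin and defensin guides as comparison set (adjusted exact p = 0.0449). Of the proton pump of endosomes and lysosomes, ATP6V1C1 had 0.30 ± 0.10 (all 5 guides positive, adjusted exact p = 0.211), ATP6V1B2 0.16 ± 0.28 and ATP6V1A −0.16 ± 0.56. Of the lysosomal proteases, CTSF had 0.27 ± 0.05 and CTSH 0.29 ± 0.32, while CTSV lay at −0.01 ± 0.28.

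APEX2 needs heme, and the heme genes were split. FECH, which inserts the iron, had −0.38 ± 0.32 with all 5 guides negative (adjusted exact p = 0.5). ALAS1, the first enzyme of the pathway, had 0.27 ± 0.36, UROD −0.15 ± 0.33, and HMOX2, which breaks heme down, 0.33 ± 0.17 with all 5 guides positive (adjusted exact p = 0.22). The median of the 7 genes was −0.08. Pooled over start sites, HMOX2 had 0.16.

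Among bromodomain genes, BRD2 had 0.46 ± 0.22 (SD over 5 guides, all positive, adjusted exact p = 0.0905), and BRD3 had 0.23 ± 0.22, while BRDT, of testis, had −0.53 ± 1.01. BRD2 was called with start sites pooled (adjusted exact p = 0.0244). Among the 129 genes of phosphatases and their regulatory subunits, 53 were negative and 76 positive, with a median of 0.07. PPP2R5C was the 1 called, beside 0.0335% of all H17 genes called positive and 44.9% below 0. PPP1R10, a nuclear subunit of protein phosphatase 1, had −0.50 ± 0.44 with all 5 guides negative, and CDC25A, a phosphatase of the cell cycle, had 0.36 ± 0.17 with all 5 positive. The related subunit PPP2R5A had 0.28 ± 0.36.

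Of 44 genes of the ATP synthase and respiratory chain in H17, 25 were negative, with a median of −0.02 and no call. ATP5A1, a subunit of the synthase, had −0.68 ± 0.88 with all 6 guides negative (adjusted exact p = 0.235). Its lowest guide lay at −2.44 and its median guide at −0.28. Its partner ATP5B had 0.19 ± 0.15. NDUFB3, of complex I, had −0.69 ± 1.16. Of 22 glycolysis genes, PKM, the pyruvate kinase, had the highest value at 0.37 ± 0.30 over 4 guides and PFKFB3 the lowest at −0.31 ± 0.41. The glutathione transferase GSTA2 had −0.99 ± 1.81 with an adjusted exact p of 0.753.

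Genes of hair, skin and epithelial defence were also measured. The 93 keratin and keratin-associated genes had a median of 0.01 and the 35 beta-defensins −0.07, with no call in either. KRTAP21-3 had −0.87 ± 1.51 and DEFB129 −0.83 ± 1.69, so that means of this size arose there with an SD larger than the mean. DEFB107A and DEFB107B, whose guides had identical reads, had the same value, 0.21. In H17, 319 pairs of genes held guides with identical reads in all 6 libraries. None of the 14 called genes was in such a pair.

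Among genes with provisional names, 5 of the 420 with an open reading frame name met the rule of size on the negative side and 2 were called, C6orf62 and CXorf61, beside 0.805% and 0.201% of all H17 genes. C10orf118 had −1.22 ± 1.54 over 4 guides and was not called. Of the 227 FAM and KIAA genes none was called, and FAM227B had −0.82 ± 0.89 with all 5 guides negative. Of 79 solute carriers, SLC1A5 was the 1 called, beside 0.201% of all H17 genes called negative. SLC25A20, the mitochondrial carnitine carrier, had −0.54 ± 0.51 with all 5 guides negative (adjusted exact p = 0.36). The median over solute carriers was 0.04.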

How the data were processed

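Genomic DNA of cells sorted into the bottom and top fluorescence quartile was sequenced over the sgRNA, 1 library per quartile. The authors amplified sgRNAs with 27 PCR cycles and counted reads per sgRNA with ScreenProcessing, and deposited the raw, unscaled counts of 209070 sgRNAs. An sgRNA was analysed in H17 with at least 50 reads in either library and a larger share of reads there than in H23 or H456. Its phenotype was the log2 ratio of analysed read shares, top over bottom library, less the NTC median, with 1 added to both counts where either was 0. A gene took the mean over the sgRNAs of 1 start site, at least 2, and the site whose p was lower represented it. Its p was not corrected for this choice between sites. Genes were tested by the Mann-Whitney U test (exact, two-sided) against the NTC sgRNAs of their sublibrary, with Benjamini-Hochberg adjustment over 18905 genes (SciPy 1.17.1, pandas 2.3.3, numpy 2.4.6, Python 3.11.15). The study's methods name the same test, but their hits came from pseudogenes built from control guides, which were not used here. A test in edgeR or DESeq2 has no residual degrees of freedom with 1 library per quartile. TMM factors from edgeR 4.0.16 in R 4.3.3 were an alternative centring. The other alternatives were read minimums, added counts, centrings, gene values, start sites, membership, the comparison set, the approximation, the p adjustment and depth. The scripts were tested on simulated data.

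Members, lists and tests were chosen with earlier results of these data known. Named were ARF6, the genes past the adjusted p, the 10 lowest and 10 highest phenotypes among genes with at least 4 sgRNAs of one sign, all H17 genes of lists with at most 8 of them, and the 2 lowest and 2 highest genes of each longer list. Some genes that meet this rule are not reported here. Genes named outside it are marked as chosen after their values were seen. Totals were 28996259 reads in the bottom and 23426498 in the top library. Intervals are exact binomial at 95% with sgRNAs as units, and do not cover the spread between sorts. Reads amplified by PCR and carrying no molecular identifier are not independent. RefSeq promoters (GRCh38.p14) run from 250 bases before to 50 after a start site. Of the 5969 gene symbols, 5872 matched a RefSeq symbol or synonym.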

Additional observations from a re-analysis of the deposited data

Results flagged for a closer look

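Reads on sgRNAs of the other sublibraries, which enter no comparison here, made up 1.69% of the H17 bottom library and 1.74% of the H17 top library. They were picked out because they lie outside the analysed set and far above the limit that a count of 0 would allow. They were spread over 54983 sgRNAs in the bottom library and 54160 in the top library, of 71308 sgRNAs assigned to H23 or H456, with a median of 2 and 1 reads and a maximum of 2127 and 1594. Where these reads came from was not tested.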

How the results depend on the processing

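The exact test called 12 negative and 2 positive genes. With p adjusted over the H17 genes alone, 6 and 1 remained (among them SLC1A5, C6orf62, SRFBP1, RIOK2 and WDR75, and PPP2R5C). Without the strongest sgRNA of each gene, 2 and 0 remained, SLC1A5 among them, beside 55 negative and 165 positive genes at an unadjusted exact p under 0.05. With the normal approximation there were 0 and 0, beside 130 and 313 at an unadjusted p under 0.05, because its lowest p was 0.000166 and its lowest adjusted p 0.228. A minimum of 1 read gave 4 positive genes. The count by the size rule, 47 negative and 4 positive, was 30 negative with the median over sgRNAs, 72 and 34 with the 3 strongest sgRNAs and 19 and 0 without the strongest. It was 15 positive with a minimum of 1 read. It was 60 negative and 2 positive with centring on all sgRNAs or median-of-ratios size factors, and 59 and 2 with TMM factors. These centrings shift every sgRNA alike and so leave the rank test as it was, with 12 and 2 genes. No named gene called in the main setting changed sign under any of 17 alternatives. The share of NTC sgRNAs below −1 ranged from 3.33% to 4.08% over 5 alternatives, and the larger adjusted p of its Fisher's exact tests reached 0.000666 at most. Depth limits the sgRNAs with few reads: SD over the H17 sgRNAs was 0.95 at up to 200 reads and 0.24 above 4000. No paired analysis was possible because each quartile has 1 library.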
